A study of Mus musculus with 6 samples.

Results

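Transcript levels of 10 regulators of late pre-B cell differentiation were followed from wild type through premalignant to malignant Eμ-*Myc* cells. The genes were *Irf4*, *Irf8*, *Spib*, *Ets1*, *Pou2af1*, *Pou2f2*, *Bcl6*, *Prdm1*, *Xbp1* and *Id3*. They were listed by symbol, matched to the Ensembl identifiers of the count data through the GENCODE vM1 annotation, and made up 10 of 37991 genes counted in each library. All 10 were among the 16683 genes that were tested.

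B-lineage precursors had been sorted from the bone marrow of C57BL/6 mice, and their polyadenylated RNA was sequenced. The labels give 1 gate for all stages (high B220, low IgM and low IgD), whereas the methods of the study give that gate, of pro-B and pre-B cells, for wild type and premalignant mice and describe the malignant cells as B220-positive pre-B cells without surface IgM or IgD. Wild type mice and premalignant Eμ-*Myc* heterozygotes were 4 to 6 weeks old, whereas malignant Eμ-*Myc* heterozygotes were taken at 10 to 20 weeks, once spontaneous lymphoma was established. The immunoglobulin heavy chain enhancer Eμ drives *Myc* in B-lineage cells, so expression of the transgene is directed to these cells as a model of MYC overexpression. Each stage had 2 libraries, for which the study describes individual animals as biological replicates, and wild type and premalignant mice were female whereas malignant mice were of both sexes, so that malignant stage cannot be told apart from age, sex or gate.

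A pre-B cell that leaves its proliferative phase closes down pre-B receptor and interleukin-7 signalling and recombines its light chain genes. IRF4 and IRF8 act at this step together with the Ets factors PU.1 (encoded by *Spi1*) and Spi-B, with which they bind composite DNA sites. The coactivator OCA-B (*Pou2af1*) joins Oct-1 and Oct-2 (*Pou2f2*) on octamer sites of immunoglobulin genes, BCL6 is a repressor that protects pre-B cells during recombination, BLIMP-1 (*Prdm1*) and XBP1 direct plasma cell differentiation, and ID3 binds E proteins and keeps them off DNA.

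Libraries held between 30031100 and 53453055 counts on genes, and a level of 3 counts corresponded to between 0.0526 and 0.108 CPM (counts per 1000000 counts of the library, scaled by TMM, which takes most genes as unchanged). *Myc* rose from 33.8 and 41.4 CPM in wild type to 1164 and 1155 CPM in premalignant and 1732 and 1578 CPM in malignant libraries, in the direction that the genotype labels give. The 12 pre-B markers summed to between 8678 and 9427 CPM in wild type, 4835 and 4876 CPM in premalignant, and 4511 and 5178 CPM in malignant libraries. Of these 12, 10 fell in premalignant and 10 in malignant relative to wild type cells by edgeR, among them *Cd79a* (-0.63 and -0.72 on the log2 scale), *Rag1* (-2.61 and -4.15), *Vpreb1* (-4.06 and -5.97) and *Igll1* (-3.78 and -5.73). *Cd79a* and *Cd24a* were still at 732 CPM or more in every library, and the surrogate light chain gene *Vpreb2* was at 0 counts in malignant replicate 1; *Rag1*, *Vpreb1*, *Igll1* and *Vpreb2* were named after their values were seen. Malignant replicates were the least alike, with Spearman's rho across genes of 0.963 against 0.9845 in wild type and 0.9887 in premalignant libraries. In wild type replicate 2, immediate-early transcripts stood apart, with 4309 CPM summed over 14 genes against 402.7 CPM in replicate 1.

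In premalignant cells, *Irf4*, *Irf8*, *Spib*, *Bcl6*, *Prdm1* and *Xbp1* fell and *Id3* rose relative to wild type, while *Pou2af1*, *Pou2f2* and *Ets1* were not called. A gene was called when its false discovery rate (FDR) was no higher than 0.1 and its log2 change was 0.5 or more in either direction in edgeR's quasi-likelihood test, adjusted over all genes tested by the Benjamini-Hochberg method. The 6 members that fell compare with 20.3% of all genes called lower, and the 1 that rose with 19% of all genes called higher. The median log2 fold change of the 10 members was -0.92, against -0.08 over all genes.

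From premalignant to malignant cells, *Spib* was the 1 member that fell, where 2.45% of all genes were called lower. None of the 10 members was called higher by edgeR or by DESeq2, although 1 had an unadjusted edgeR p under 0.05, and 3.73% of all genes were called higher. Between malignant and wild type cells, *Irf4*, *Irf8*, *Spib*, *Bcl6* and *Prdm1* fell and *Id3* and *Pou2f2* rose. The 5 members that fell compare with 24.3% of all genes called lower, and the 2 that rose with 24.9% called higher. The 3 comparisons share libraries, so they are not independent of each other. With 2 libraries against 2, an exact permutation test of a single gene cannot give a two-sided p below 0.33, so only the fit across all genes was used.

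**Figure D1:**
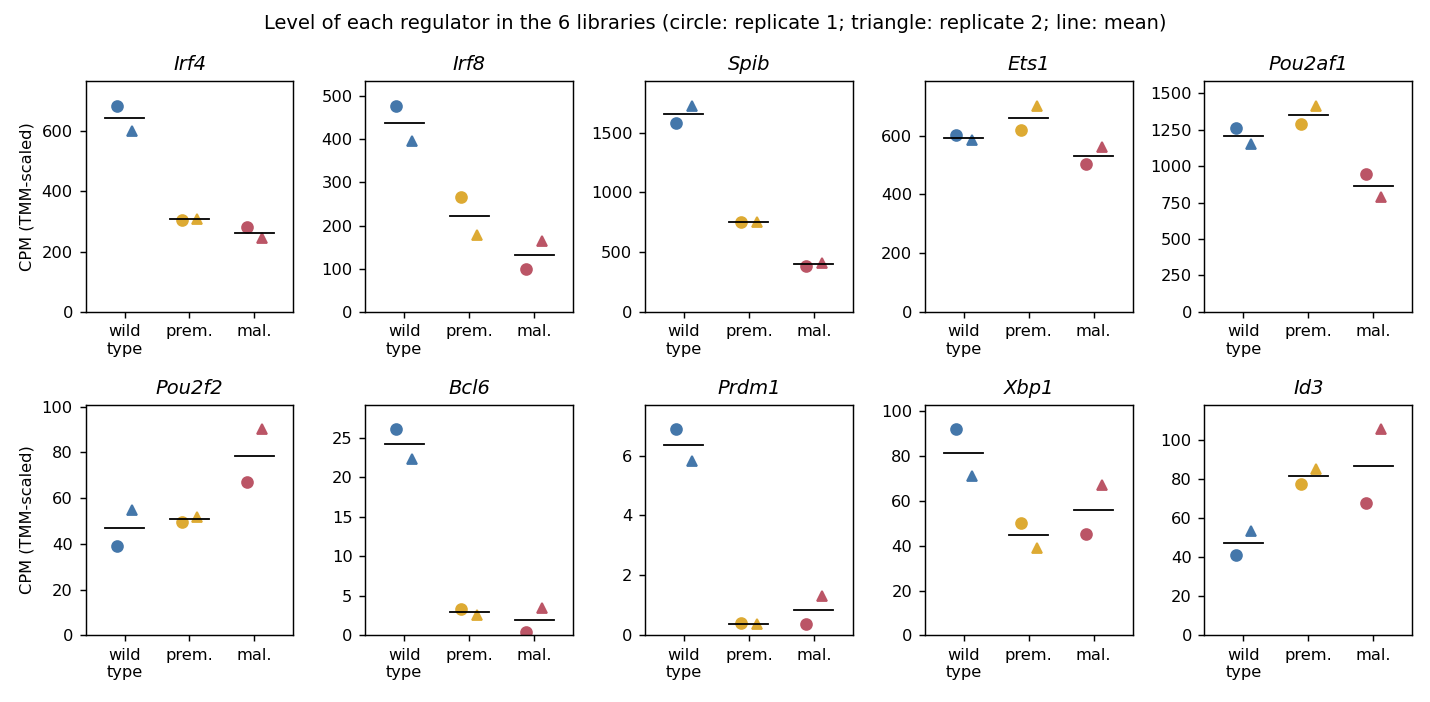
Level of each regulator (CPM, TMM-scaled, linear axis from 0) in the 2 wild type, 2 premalignant (prem.) and 2 malignant (mal.) libraries, with circles for replicate 1, triangles for replicate 2 and a line at the mean. *Spib* steps down at both transitions, *Irf4* falls between wild type and premalignant cells, *Bcl6* and *Prdm1* are near the axis in transgenic cells, and the malignant replicates of *Irf8*, *Bcl6*, *Prdm1*, *Xbp1* and *Id3* lie apart.

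*Irf4* encodes the interferon regulatory factor that promotes light chain recombination and, at high levels, plasma cell differentiation (chr13:30841095-30858796, plus strand, NCBIM37). Its level was 685 and 603 CPM in wild type, 306 and 310 CPM in premalignant, and 281 and 244 CPM in malignant libraries. Both wild type libraries lay far above the other 4, and the premalignant libraries lay slightly above the malignant ones without overlap. The log2 fold change was -1.06 ± 0.15 (SE; adjusted p = 0.00499, edgeR) from wild type to premalignant and -1.30 ± 0.15 (adjusted p = 0.00159) from wild type to malignant cells. The step from premalignant to malignant was -0.23 ± 0.15 and was not called (adjusted p = 0.445, edgeR). Among protein-coding genes, *Irf4* ranked 275 by mean RPKM in wild type cells (of 13792 ranked) and 1194 in malignant cells.

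*Irf8* encodes the related factor that shares composite sites with IRF4 and is also required in myeloid and dendritic lineages (chr8:123260258-123280594, plus strand, NCBIM37). It was at 478 and 397 CPM in wild type, 266 and 178 CPM in premalignant, and 98.9 and 164 CPM in malignant libraries. The stages did not overlap, but the premalignant and malignant replicates spread widely, and malignant replicate 2 came close to premalignant replicate 2. The change to premalignant was -0.98 ± 0.30 on the log2 scale (adjusted p = 0.0517, edgeR), and that from wild type to malignant was -1.74 ± 0.31 (adjusted p = 0.00642). The premalignant call was lost when either wild type or either premalignant library was left out, with adjusted p then between 0.103 and 0.284 in edgeR. From premalignant to malignant the value was -0.76 ± 0.30 (adjusted p = 0.236, edgeR), and it was called only without malignant replicate 2 among the fits that left out 1 library (-1.20, adjusted p = 0.0306).

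*Spib* encodes the lymphoid Ets factor Spi-B, the close relative of PU.1 (chr7:51781365-51787441, minus strand, NCBIM37). It was at 1585 and 1726 CPM in wild type, 754 and 750 CPM in premalignant, and 383 and 410 CPM in malignant libraries. Replicates lay within a narrow range at each stage, and each stage was clearly separate from the next. The log2 fold change was -1.14 ± 0.14 (adjusted p = 0.00385, edgeR) at the first step and -0.92 ± 0.14 (adjusted p = 0.0348) at the second step. From wild type to malignant cells *Spib* fell by 2.06 ± 0.15 on the log2 scale (adjusted p = 0.00063, edgeR), which is 4.17-fold. The first call held without any 1 library. The second was lost without either wild type library (adjusted p = 0.10 and 0.101) or either premalignant library (0.390 and 0.331), where no gene at all was called without a premalignant library and the *Spib* fold change stayed between -1.01 and -0.88 in all 6 edgeR fits.

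*Ets1* encodes the founding Ets factor, which restrains terminal B cell differentiation (chr9:32443806-32565405, plus strand, NCBIM37). Its level was 602 and 584 CPM in wild type, 619 and 702 CPM in premalignant, and 505 and 560 CPM in malignant libraries. The range over all 6 libraries was small, with the premalignant libraries highest and the malignant libraries lowest. The log2 fold changes were 0.15 ± 0.14 for premalignant vs. wild type, -0.31 ± 0.14 for malignant vs. premalignant, and -0.16 ± 0.14 for malignant vs. wild type, and none was called by edgeR (adjusted p = 0.448, 0.301 and 0.425).

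*Pou2af1* encodes OCA-B (chr9:51021795-51048184, plus strand, NCBIM37). It was at 1265 and 1152 CPM in wild type, 1290 and 1415 CPM in premalignant, and 947 and 786 CPM in malignant libraries. Premalignant libraries were slightly higher than wild type ones, and both malignant libraries were lowest. The change to premalignant was 0.16 ± 0.16 on the log2 scale (adjusted p = 0.486, edgeR). The step to malignant cells was -0.64 ± 0.17 and lay close to the threshold (adjusted p = 0.109, edgeR), being called lower without either malignant library (adjusted p = 0.0182 and 0.0417) and by DESeq2 (adjusted p = 0.00076). Against wild type the malignant value was -0.48 ± 0.16, under the minimum fold change (adjusted p = 0.0573, edgeR).

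*Pou2f2* encodes Oct-2 (chr7:25877472-25917507, minus strand, NCBIM37). It was at 39.2 and 54.6 CPM in wild type, 49.5 and 51.9 CPM in premalignant, and 67.2 and 90.0 CPM in malignant libraries. Wild type and premalignant libraries overlapped, and both malignant libraries were above all others. The rise from wild type to malignant was 0.75 ± 0.22 on the log2 scale (adjusted p = 0.0358, edgeR), and it was no longer called without wild type replicate 1. The values for premalignant vs. wild type (0.11 ± 0.22, adjusted p = 0.726) and malignant vs. premalignant (0.63 ± 0.22, adjusted p = 0.190) were not called by edgeR. Leaving out wild type replicate 1 turned the former to -0.10, and leaving out malignant replicate 1 raised the latter to 0.83, which was called (adjusted p = 0.0540).

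*Bcl6* was scarce in wild type cells and scarcer in transgenic cells (chr16:23965138-23988938, minus strand, NCBIM37). It was at 26.0 and 22.3 CPM in wild type (1486 and 786 counts), 3.39 and 2.53 CPM in premalignant (178 and 84 counts), and 0.481 and 3.51 CPM in malignant libraries (23 and 98 counts). All 4 transgenic libraries were well below wild type, and the malignant replicates lay on either side of the premalignant ones, with Poisson intervals (95%, counting error only) of 0.305 to 0.722 CPM and 2.85 to 4.28 CPM. The log2 fold change was -3.02 ± 0.82 to premalignant (adjusted p = 0.0358, edgeR) and -3.63 ± 0.85 to malignant cells (adjusted p = 0.0163). These SEs include the spread between malignant libraries, and the former was 0.21 with only wild type and premalignant libraries fitted. The call for premalignant cells was lost without either wild type or either premalignant library (adjusted p from 0.132 to 0.201, edgeR), although the value stayed between -3.25 and -2.82. For malignant vs. wild type, *Bcl6* gave -2.77 without malignant replicate 1 and -5.62 without malignant replicate 2. The premalignant to malignant value of -0.60 ± 0.79 (adjusted p = 0.738, edgeR) turned to 0.24 without malignant replicate 1 and to -2.66 without malignant replicate 2, where it was called (adjusted p = 0.00343).

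*Prdm1* was the least abundant member in each stage by mean RPKM (chr10:44156983-44248307, minus strand, NCBIM37). It was at 6.87 and 5.80 CPM in wild type (392 and 205 counts), 0.40 and 0.392 CPM in premalignant (21 and 13 counts), and 0.377 and 1.33 CPM in malignant libraries (18 and 37 counts). Wild type libraries were far above the rest, and malignant replicate 1 fell just below the premalignant libraries while replicate 2 was above them. *Prdm1* fell by 3.99 ± 0.65 on the log2 scale in premalignant cells (adjusted p = 0.00785, edgeR), a 15.9-fold change that held without any 1 library. In malignant vs. wild type cells the value was -2.92 ± 0.61 (adjusted p = 0.0114, edgeR), with -2.25 without malignant replicate 1 and -4.04 without malignant replicate 2. Malignant vs. premalignant gave 1.07 ± 0.62 (adjusted p = 0.406, edgeR), which became 1.73 and was called without malignant replicate 1 and turned to -0.11 without malignant replicate 2.

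*Xbp1* encodes the factor that expands the secretory apparatus after its mRNA is spliced by the stress sensor IRE1, an event that gene counts do not show (chr11:5420662-5425896, plus strand, NCBIM37). It was at 91.9 and 71.3 CPM in wild type, 50.3 and 39.0 CPM in premalignant, and 45.3 and 66.9 CPM in malignant libraries. Wild type libraries were highest without overlap, and premalignant and malignant libraries overlapped. The premalignant value was -0.87 ± 0.25 (adjusted p = 0.0431, edgeR) and was lost without wild type replicate 1 (adjusted p = 0.194), premalignant replicate 1 (0.125) or premalignant replicate 2 (0.261). Malignant vs. wild type gave -0.54 ± 0.25 (adjusted p = 0.127, edgeR), and malignant vs. premalignant gave 0.33 ± 0.25 (adjusted p = 0.533) and -0.016 without malignant replicate 2.

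*Id3* was the member that rose in premalignant cells (chr4:135699412-135701670, plus strand, NCBIM37). Its level was 41.3 and 53.3 CPM in wild type, 77.2 and 85.3 CPM in premalignant, and 67.7 and 105 CPM in malignant libraries. Both transgenic stages lay above wild type in every library, and the malignant replicates lay on either side of the premalignant ones. The rise was 0.78 ± 0.24 on the log2 scale in premalignant cells (adjusted p = 0.0550, edgeR) and 0.87 ± 0.25 in malignant cells relative to wild type (adjusted p = 0.0306). The premalignant call was lost without either wild type or either premalignant library (adjusted p from 0.120 to 0.242, edgeR), and the malignant call without wild type replicate 1. Malignant vs. premalignant gave 0.09 ± 0.24 (adjusted p = 0.892, edgeR) and turned to -0.30 without malignant replicate 2.

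**Figure D2:**
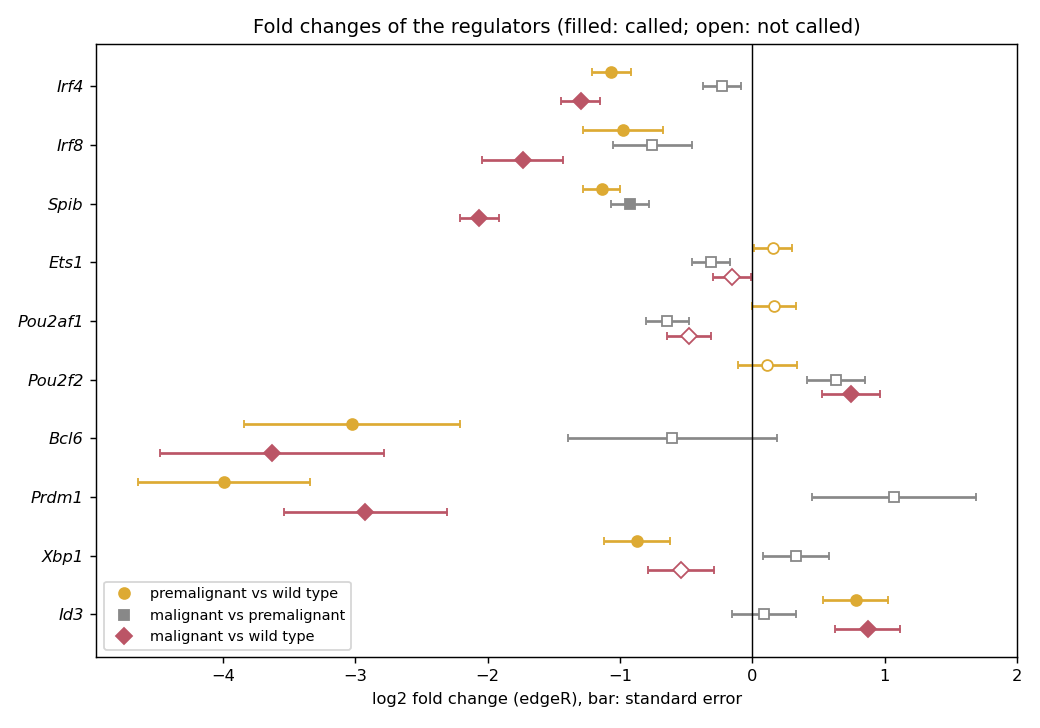
Log2 fold change of each regulator in premalignant vs. wild type (circles), malignant vs. premalignant (squares) and malignant vs. wild type cells (diamonds), fitted by edgeR on 2 libraries per stage, with bars for the standard error, filled symbols for called values and open symbols for the others. *Spib* is filled in all 3 comparisons, and the bars of *Bcl6* and *Prdm1* are the widest.

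Promoter sequence was examined for the members because their proteins bind known motifs, among them the octamer (letters ATGCAAAT) and the Ets-Irf composite site (GGAA, any 2 bases, then GAAA). Windows from 250 bases before to 50 bases after an annotated start site were taken from RefSeq for GRCm38.p6, a later build than that of the gene positions above, and 9 of 10 members matched with 11 windows, *Ets1* being the exception. On either strand, TGCAAAT, which is the octamer without its first base and lies within it, was found in windows of *Spib*, *Pou2af1* and *Prdm1* and in 4.02% of all 32851 windows. The E-box of Myc and Max, CACGTG, was found in a *Bcl6* window and in 7.15% of all windows, and the composite site in windows of *Bcl6* and *Pou2f2* and in 2.72%. CAGGTG, the E-box of E proteins, occurred in windows of *Irf8*, *Prdm1* and *Xbp1* and in 20.2% of all windows, and CCACG, the core of unfolded protein response elements, in 5 member windows and in 32.8%. No member window held the full octamer (1.74% of all windows) or the interferon response core, GAAA with any 2 bases before a second GAAA (3.44%). A match is a description of these letters and not a binding site. The 3 windows with TGCAAAT are shown so that they can be set side by side, and both *Bcl6* windows because each holds another of these motifs. Windows of the other members, among them *Irf4*, *Irf8* and *Xbp1*, which also fell in premalignant cells, are not printed; the 250 bases before the start are written 5′ to 3′ on the strand of its gene, with capitals for the motif matches named after it.
*Spib*, chr7:44532072-44532321, minus strand, TGCAAAT from base -248: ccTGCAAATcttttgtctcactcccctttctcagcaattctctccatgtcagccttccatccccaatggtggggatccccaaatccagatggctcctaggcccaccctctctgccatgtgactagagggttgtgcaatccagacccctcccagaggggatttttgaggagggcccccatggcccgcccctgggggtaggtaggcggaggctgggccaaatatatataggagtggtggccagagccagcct
*Pou2af1*, chr9:51213440-51213689, plus strand, TGCAAAT from base -231: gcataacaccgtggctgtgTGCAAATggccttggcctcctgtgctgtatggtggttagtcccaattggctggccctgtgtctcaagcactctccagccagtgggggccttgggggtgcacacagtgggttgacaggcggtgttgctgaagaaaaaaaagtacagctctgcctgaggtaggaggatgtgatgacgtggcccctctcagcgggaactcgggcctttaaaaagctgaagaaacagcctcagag
*Prdm1*, chr10:44458749-44458998, minus strand, the reverse complement of TGCAAAT from base -167 and CAGGTG from base -87: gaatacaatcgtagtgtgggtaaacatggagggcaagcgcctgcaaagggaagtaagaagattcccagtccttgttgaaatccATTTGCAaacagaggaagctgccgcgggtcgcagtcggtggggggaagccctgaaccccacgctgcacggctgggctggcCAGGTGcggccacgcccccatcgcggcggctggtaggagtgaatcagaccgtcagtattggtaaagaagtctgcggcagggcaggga
*Bcl6*, the first start site, chr16:23988853-23989102, minus strand, CACGTG from base -60: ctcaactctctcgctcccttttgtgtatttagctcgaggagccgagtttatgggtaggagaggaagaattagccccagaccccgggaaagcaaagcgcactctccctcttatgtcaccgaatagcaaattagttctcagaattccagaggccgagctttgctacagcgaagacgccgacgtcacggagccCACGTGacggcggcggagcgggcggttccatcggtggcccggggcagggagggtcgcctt
*Bcl6*, a further start site, chr16:23981284-23981533, minus strand, the composite site from base -28: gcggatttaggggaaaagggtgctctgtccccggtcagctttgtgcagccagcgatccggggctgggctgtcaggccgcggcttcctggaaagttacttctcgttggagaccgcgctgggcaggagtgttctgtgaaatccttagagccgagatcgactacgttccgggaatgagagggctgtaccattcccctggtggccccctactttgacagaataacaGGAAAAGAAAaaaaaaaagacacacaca

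Levels between members were compared per exon length, as RPKM (CPM without TMM scaling, divided by exon length in kilobases). In wild type cells *Spib* led with 624 and 686 RPKM, followed in order of mean RPKM by *Pou2af1*, *Irf4*, *Ets1*, *Irf8*, *Id3*, *Xbp1*, *Pou2f2*, *Bcl6* and *Prdm1*, and of these neighbours only *Id3* and *Xbp1* overlapped between libraries. By mean RPKM, *Spib* ranked 43 of 13792 protein-coding genes in wild type, with rank 174 once premalignant and rank 410 once malignant. In premalignant cells *Pou2af1* was the highest member with a mean of 512 RPKM against 257 RPKM for *Spib*, and *Ets1* had passed *Irf4*, with no neighbours overlapping.

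In malignant cells the order by mean RPKM began with *Pou2af1*, *Spib*, *Ets1*, *Irf4* and *Id3* and went on to *Pou2f2*, *Irf8*, *Xbp1*, *Bcl6* and *Prdm1*. *Irf4* and *Id3*, *Irf8* and *Xbp1*, and *Bcl6* and *Prdm1* could not be told apart there, since their library values overlapped. *Id3* ranked 2203 among protein-coding genes in wild type and 1413 in malignant cells, and *Irf8* went from rank 762 to rank 3575. *Bcl6* ranked 8303 in wild type and 11166 in malignant cells.

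**Figure D3:**
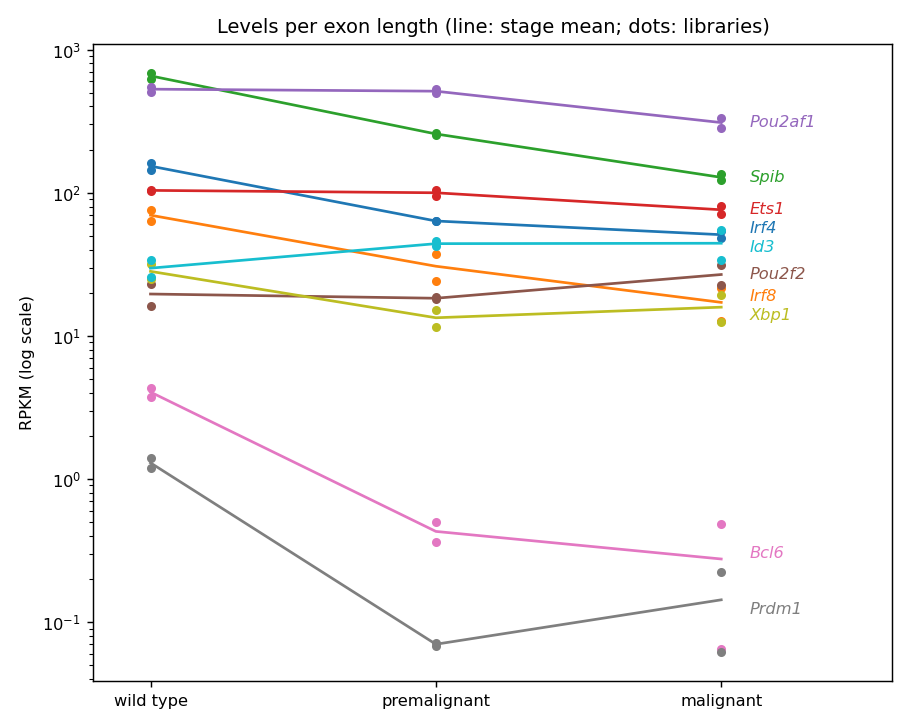
Level per exon length (RPKM, log axis) of each regulator by stage, with dots for the 2 libraries of a stage and lines through the stage means. The means of *Pou2af1* (529 and 512 RPKM) and *Ets1* (104 and 99.8 RPKM) lie close together in wild type and premalignant cells while *Spib* and *Irf4* drop below them, and *Bcl6* and *Prdm1* lie far under the other members throughout.

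Ratios within a library do not depend on the scaling between libraries, and they were not tested. *Spib* stood at 22.5 and 19.6 times the RPKM of *Spi1* in wild type, 12.7 and 11.5 times in premalignant, and 5.42 and 5.62 times in malignant libraries. The ratio stepped down at each stage without overlap, while *Spi1* itself, chosen for this ratio, lay between 56.1 and 83.5 CPM in all 6 libraries and was not called in any comparison by edgeR (adjusted p from 0.138 to 0.529). *Irf4* over *Irf8* was 2.15 and 2.27 in wild type, 1.72 and 2.61 in premalignant, and 4.25 and 2.22 in malignant libraries. These values overlapped between all stages, with malignant replicate 1 alone above the rest.

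*Id3* over the summed RPKM of the E protein genes *Tcf3*, *Tcf4* and *Tcf12* was 0.0704 and 0.0860 in wild type, 0.177 and 0.198 in premalignant, and 0.200 and 0.256 in malignant libraries. Every transgenic library was above both wild type libraries, and the E protein sum itself went from 366 and 391 RPKM in wild type to 239 and 231 RPKM in premalignant and 170 and 214 RPKM in malignant libraries. *Bcl6* over *Prdm1*, whose proteins repress each other's programmes, was 3.11 and 3.14 in wild type, 6.95 and 5.30 in premalignant, and 1.05 and 2.17 in malignant libraries. The stages did not overlap, but few counts of either gene lie behind the transgenic values.

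**Figure D4:**
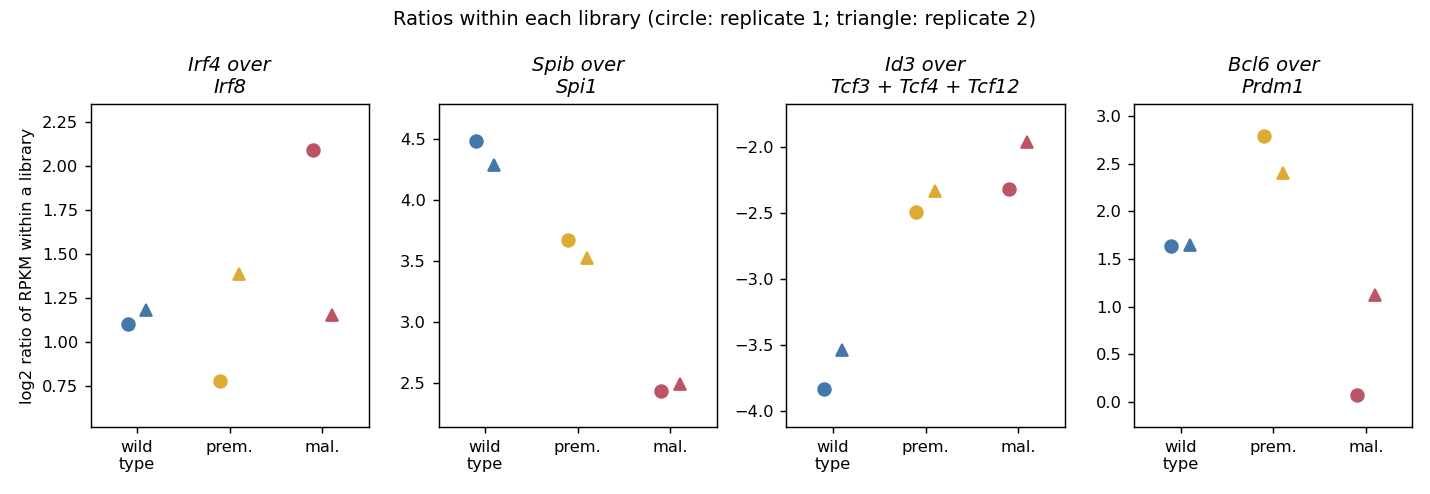
Log2 ratio of RPKM within each library for *Irf4* over *Irf8*, *Spib* over *Spi1*, *Id3* over the summed E protein genes, and *Bcl6* over *Prdm1*, with 2 libraries per stage (circles for replicate 1, triangles for replicate 2). *Spib* over *Spi1* falls from 4.49 and 4.29 in wild type to 2.44 and 2.49 in malignant libraries, and *Id3* over E proteins is higher in all 4 transgenic libraries than in wild type.

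Genes that act with the members were counted over lists, with the 3 most abundant genes of a list as examples. Further genes of a list are named after their values were seen. Of 15 partner factors of the B lineage, 8 fell and 0 rose in premalignant cells by edgeR, with a median log2 fold change of -0.70, and 11 fell in malignant relative to wild type cells. *Myb*, which sustains pro-B and pre-B cells, fell by 1.68 on the log2 scale in premalignant cells, whereas *Ikzf1*, encoding Ikaros (-0.36), and *Tcf3*, encoding E2A (-0.31), were not called there. At the malignant step 2 of the 15 fell further, *Bach2* (-1.24) and *Sox4* (-2.30).

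Of the 7 other Irf genes, *Irf1*, *Irf5*, *Irf7* and *Irf9* fell in premalignant cells (median of the list -0.84), and *Irf1*, *Irf7* and *Irf9* fell and *Irf5* rose in malignant relative to wild type cells. *Irf5*, linked to inflammatory signalling, fell by 0.58 in premalignant cells and then rose by 1.27 in malignant relative to premalignant cells, and *Irf2* (-0.45) and *Irf3* (-0.08) were not called in premalignant cells. *Irf7* was the 1 that fell between premalignant and malignant cells (-1.79). Among 15 other Ets genes, *Ets2*, *Erg*, *Elf1*, *Elk3* and *Etv6* fell and *Erf* rose in premalignant cells (median -0.28). *Ets2* and *Elk3* then rose at the malignant step by 2.01 and 1.18, and between wild type and malignant cells *Fli1*, *Erg* and *Elk3* fell and *Ets2* and *Erf* rose. *Elf1* fell by 0.65 in premalignant cells, while *Elf4* (-0.15) and *Elk4* (-0.07) were not called. *Pou2f1*, encoding Oct-1 and the 1 tested gene of the other Oct genes, was not called in any comparison (0.11, 0.11 and 0.22).

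Beside *Id3*, 4 of 5 tested E protein and Id genes (*Tcf4*, *Tcf12*, *Id1* and *Id2*) fell in premalignant cells (median -1.39) and all 5 tested fell in malignant relative to wild type cells. *Tcf4* and *Tcf12* fell by 1.39 and 1.03 in premalignant cells, and *Tcf3* fell by 0.51 in malignant relative to wild type cells. *Id2*, the relative of *Id3* that also binds E proteins, moved against it, from 25.5 and 24.6 CPM in wild type to 2.80 and 2.38 CPM in premalignant and 0.858 and 1.68 CPM in malignant libraries. It fell by 3.27 in premalignant cells (adjusted p = 0.00313, edgeR). At the malignant step 0 of these 5 genes was called by edgeR.

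Few corepressors of BCL6 were called, with the histone deacetylase genes *Hdac5* and *Hdac7* lower, of 12, both in premalignant cells (median 0.03) and in malignant relative to wild type cells. *Bcor* (0.12), *Ncor1* (0.10) and *Ctbp1* (0.22) were not called in premalignant cells. Among 22 genes of the unfolded protein response and secretion, in which XBP1 acts, 4 rose and 6 fell in premalignant cells (median 0.13), 1 rose at the malignant step (*Atf6*, 0.96), and 7 rose and 5 fell in malignant relative to wild type cells. Those that fell with *Xbp1* in premalignant cells were the stress sensor genes *Ern1* (-1.14), which encodes IRE1, and *Atf6* (-0.52), together with *Ddit3*, *Dnajb9*, *Edem1* and *Herpud1*. The 4 that rose were *Sdf2l1*, *Pdia4*, *Sec61b* and *Manf*, which encode parts of the folding and translocation machinery. The chaperone genes *Hspa5* and *Hsp90b1* were not called in any comparison, and in malignant replicate 2 they stood at 535 and 1090 CPM against 265 and 446 CPM in replicate 1, the library in which *Xbp1* was also lower. *Syvn1*, encoding a ubiquitin ligase of this pathway, fell by 0.56 in malignant relative to wild type cells. Of 6 tested plasma cell genes, *Jchain* and *Cd38* fell in premalignant cells (median -1.48), and *Sdc1*, *Slamf7*, *Ell2* and *Cd38* fell in malignant relative to wild type cells. *Cd38* fell by 2.69 in premalignant cells and rose by 1.64 in malignant relative to premalignant cells, *Slamf7* fell by 1.59 at that step, and *Mzb1* rose by 1.04 from wild type to malignant cells.

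Genes of the late pre-B and immature B cell did not move one way, with 2 of 12 higher (*Cd74* and *Ciita*) and 8 lower in premalignant cells (median -1.08) and 4 higher (*Cd2*, *Cd22*, *Cd74* and *Ciita*) and 6 lower in malignant relative to wild type cells. *Rag1*, a subunit of the recombinase, fell by 2.61 and the kappa constant gene *Igkc* by 1.01 in premalignant cells, whereas *Cd74*, the class II invariant chain, rose by 1.47. How reads that match more than 1 place were counted is not given, which makes values of immunoglobulin genes less certain. Whether this bears on *Igkc* was not tested. All 8 surrogate light chain and early pre-B genes fell in premalignant cells (median -3.85), among them *Vpreb3* (-1.12), *Dntt* (-3.91) and *Il7r* (-2.38), and all 8 also fell between wild type and malignant cells. At the malignant step, 1 late pre-B gene rose (*Cd2*, 2.16) and 1 early pre-B gene fell (*Il7r*, -1.27).

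Other measured features moved with the members, and their part in the results was not tested. Of 14 cell cycle genes, 10 rose and 0 fell in premalignant cells (median 0.76), with *Mki67* up by 0.66 and *Pcna* up by 0.87, while *Top2a* (0.72) was not called, and *Cdk1*, *Aurkb*, *Mcm2*, *Mcm3* and *Mcm5* were higher in malignant than wild type cells. Of 14 immediate-early genes, 10 fell in premalignant cells (median -3.51) and 6 in malignant relative to wild type cells, while *Egr3* rose at the malignant step, and *Jun* differed from 27.3 CPM in wild type replicate 1 to 1179 CPM in replicate 2. Between the wild type libraries the members were from 1.03-fold to 1.39-fold apart. *Irf4*, *Spib* and *Prdm1* kept their premalignant calls without either wild type library in edgeR. *Irf8*, *Bcl6* and *Id3* lost theirs without either, and *Xbp1* lost its call without replicate 1. The log2 values of *Irf8*, *Bcl6* and *Id3* were -1.10, -3.13 and 0.98 without replicate 2, and -0.83, -2.90 and 0.61 without replicate 1. Calls over all genes were also fewer in both fits, each of which leaves 1 wild type library.

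Markers of other bone marrow cells were also lower in transgenic cells. The 6 markers of plasmacytoid dendritic cells, which express *Irf8*, *Spib* and *Tcf4*, summed to between 285 and 432 CPM in wild type, 75.4 and 117 CPM in premalignant, and 50.1 and 101.4 CPM in malignant libraries, and 5 of 6 fell in premalignant cells and all 6 in malignant relative to wild type cells. *Siglech*, the marker not called in premalignant cells (adjusted p = 0.104, edgeR), was at 204 and 138 CPM in wild type, 39.0 and 19.6 CPM in premalignant, and 1.67 and 21.9 CPM in malignant libraries. In malignant replicates 1 and 2, *Irf8* was at 98.9 and 164 CPM, *Tcf4* at 47.1 and 106.6 CPM and *Spib* at 383 and 410 CPM. The part of these cells in the results was not tested. In RNA from sorted cells in bulk, fewer cells of a type and less RNA per cell cannot be told apart.

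Granulocyte markers, 8 of 8 of which fell in premalignant cells, summed to between 1029 and 2496 CPM in wild type, 329.98 and 330.3 CPM in premalignant, and 78.7 and 129.6 CPM in malignant libraries. Erythroid markers, of which 5 of 6 fell, summed to between 294 and 1084 CPM in wild type and between 52.5 and 138 CPM in transgenic libraries. T and NK cell markers, of which 5 of 7 fell, went from between 60.4 and 126 CPM to between 1.59 and 34.0 CPM, with *Cd3e* at 0 in premalignant replicate 2. The 8 macrophage and monocyte markers summed to between 3.54 and 13.8 CPM in every library, with *Csf1r*, *Cd14*, *Fcgr1*, *C1qa* and *Ms4a7* lower and *Mrc1* higher in premalignant cells, and *Csf1r* was at most 8.10 CPM.

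Mature B and plasma cell markers were counted in the same way. The 6 tested mature B markers summed to between 542 and 665 CPM in wild type and between 547 and 745 CPM in transgenic libraries, with *Fcer2a* and *Cr2* lower in premalignant cells. In malignant relative to wild type cells *Fcer2a*, *Cr2* and *Ms4a1* (-1.31) were lower and *Cd22* was higher. The plasma cell markers summed to between 498 and 568 CPM in wild type and between 346 and 666 CPM in transgenic libraries, with *Jchain*, 1 of 4 tested, lower in premalignant cells, and *Sdc1* and *Slamf7* lower and *Mzb1* higher in malignant relative to wild type cells. Most of each sum came from *Slamf7* and *Mzb1*, which stood at 303 and 189 CPM in wild type replicate 1. *Jchain* was at most 10.1 CPM in any library, and *Tnfrsf17*, too scarce to be tested, at most 0.19 CPM. *Sdc1* was at 69.5 and 65.0 CPM in wild type, 29.1 and 26.5 CPM in premalignant, and 1.65 and 11.9 CPM in malignant libraries, and it fell by 3.34 from wild type to malignant cells (adjusted p = 0.0184, edgeR).

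**Figure D5:**
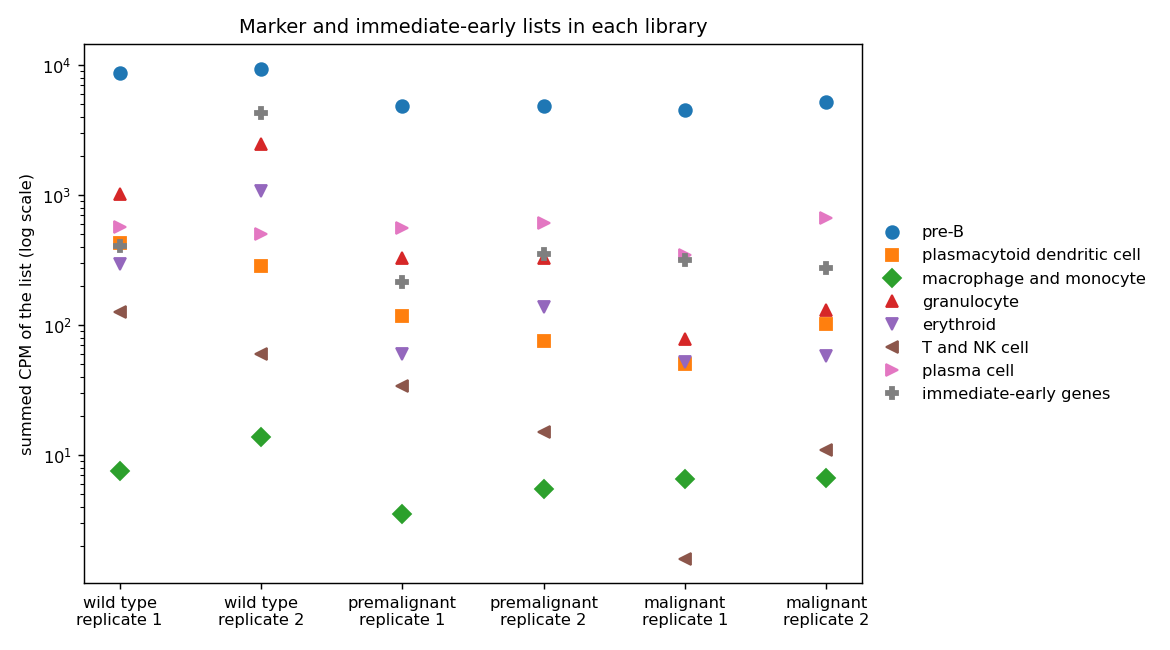
Summed CPM (log axis) of cell type marker lists and of 14 immediate-early genes in each of the 6 libraries, 1 point per list and library. Pre-B markers are the highest list in every library, dendritic, granulocyte, erythroid and T and NK cell markers are lower in transgenic than in wild type libraries, and immediate-early genes stand apart in wild type replicate 2.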

How the data were processed

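Polyadenylated RNA of sorted pre-B cells was measured in 6 libraries, 2 each for wild type, premalignant and malignant mice, with groups and replicate numbers taken from the sample labels. Per the submitters' processing notes and the study's methods, 50-bp single-end reads from an unstranded kit were processed with CASAVA 1.8.2, aligned to mm9 (TopHat and Bowtie are named) and counted per Ensembl gene with HTSeq. The authors deposited raw counts without normalization, and the counting options are not given in the sources used here. Tables of the authors' own DESeq comparisons were also deposited and were not used.

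Symbols, positions and exon lengths came from GENCODE vM1 on NCBIM37, which named 37205 of 37991 identifiers. No other gene shared exon sequence with a member, and *Gm20388*, which spans *Irf8*, had 0 counts. Counts were tested with edgeR 4.0.16 (R 4.3.3; quasi-likelihood, TMM, default low-count filter, 1 fit of all 6 libraries), with the thresholds of the study's methods, and standard errors were derived from the log2 fold change and its F statistic. The alternatives were DESeq2 1.42.0, RLE and upper-quartile scaling, 2 other count filters (10 counts or more per library, or none), a replicate block, fits restricted to the compared stages, an FDR limit of 0.05, a log2 limit of 1 or none, and leaving out each library. The fits were tested on simulated data in which a small share of genes was changed by a large fold in malignant libraries only. There edgeR recovered most of the changed genes, but more of its calls were false than the FDR names. Far more genes were called against wild type in the data, so that false share need not carry over. Calls near the threshold are uncertain.

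The members and all gene lists were chosen with earlier results of these data known. All 10 members are described. Of each list, the counts called and the 3 genes with the highest mean CPM are given, and other genes are marked as named after their values were seen. Some genes of these lists are not reported here. RPKM was computed from counts, total counts and exon lengths. Poisson intervals and the limit of 3 counts cover counting error only. P-values rest on the spread between the 2 animals of a stage, pooled over all 3 stages in 1 fit. Spread between malignant libraries thus enters the premalignant vs. wild type values. With only these stages fitted, the SE there fell from 0.82 to 0.21 for *Bcl6* and from 0.30 to 0.21 for *Irf8*. It fell from 0.25 to 0.18 for *Xbp1* and from 0.24 to 0.16 for *Id3*, and each was still called.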

Additional observations from a re-analysis of the deposited data

How the results depend on the processing

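Depth limited *Prdm1* and *Bcl6* most, which had 13 to 37 and 23 to 178 counts in transgenic libraries. In premalignant vs. wild type cells, 1 member was higher and 6 were lower, beside 3169 and 3394 of all genes. Both member counts fell whichever wild type or premalignant library was left out, as did both counts over all genes. The 1 higher member became 0 at an FDR of 0.05 and with a log2 limit of 1, and the 6 lower became 5 (without *Irf8*) and 4 (without *Irf8* and *Xbp1*). Over all genes these 2 settings gave 2565 and 1750 higher, and 2493 and 2532 lower. In malignant vs. premalignant cells, 0 were higher and 1 lower. The lower count became 2 with DESeq2, RLE or upper-quartile scaling or at least 10 counts in every library, 3 without a filter and 0 with a log2 limit of 1, and the higher count became 1 without a filter. Over all genes, the 408 lower became 1028, 403, 492, 422, 1372 and 329 in the same order of settings. The 623 higher became 1438 without a filter. Calls at this step rose without either malignant library, over all genes as well as among the members. They fell, again over all genes and among the members, without any 1 wild type or premalignant library. In malignant vs. wild type cells, 2 members were higher, which became 0 with a log2 limit of 1, where 4153 of all genes became 2762. Fewer members were called higher without wild type replicate 1, where fewer of all genes were called higher as well. Signs of member fold changes turned only with 1 library left out. The log2 values then ranged from -0.10 to 0.37 for *Pou2f2* in premalignant vs. wild type and, at the malignant step, from -2.66 to 0.24 for *Bcl6*, -0.30 to 0.37 for *Id3*, -0.11 to 1.73 for *Prdm1* and -0.016 to 0.58 for *Xbp1*, and the turned values were not called. Fits without a library have fewer samples, yet some of them gave more calls over all genes, and beyond that the cause was not tested.

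*Pou2af1* was also called lower in malignant relative to wild type cells with upper-quartile scaling (-0.64), at least 10 counts in every library (-0.57) and no minimum fold change, and *Xbp1* with upper-quartile scaling (-0.71), at least 10 counts (-0.63) and no filter. Upper-quartile scaling moved the median of all genes by -0.167 on the log2 scale in malignant vs. wild type cells. It gave 487 genes higher and 492 lower in malignant vs. premalignant cells, where TMM gave 623 and 408. That comparison varied most over all genes, with 1141 higher and 1028 lower in DESeq2, 1438 and 1372 without a filter, 261 and 146 at an FDR of 0.05, and 194 and 64 with only the stages compared. With that limit of 1, 1750 genes were higher in premalignant and 2762 in malignant relative to wild type cells, against 3169 and 4153.

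The replicate numbers shared by the stages are not stated to mark a shared animal, batch or day. Replicate 1 was the deeper library at every stage. It held 51065861, 53453055 and 52996457 counts in wild type, premalignant and malignant cells, against 31283803, 34543633 and 30031100 in replicate 2. Libraries of 1 number deviated from the means of their stages with a correlation over 16683 genes of r = 0.509 (wild type and premalignant), 0.257 (premalignant and malignant) and 0.186 (wild type and malignant), but with 2 numbers this does not establish a pairing. With the replicate number as a block, the members called were 1 higher and 6 lower, 0 higher and 1 lower, and 2 higher and 5 lower in the 3 comparisons, the same counts as without the block. Over all genes the block gave 3167 higher and 3408 lower, 525 and 415, and 4101 and 4123. Without the block these were 3169 and 3394, 623 and 408, and 4153 and 4059.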
